A study of Mus musculus with 4 samples.

Results

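The immunoglobulin kappa V genes are the variable gene segments of the antibody kappa light chain, and they lie in a row on mouse chromosome 6 upstream of the kappa constant gene Igkc. They were taken as the rows of the deposited raw read table on chromosome 6 that start in a fixed stretch around the kappa locus and carry an immunoglobulin V gene type, which gave 98 of the 38087 genes in the table. The table writes that type in 2 ways, as IG_V_gene for 1 of these genes (Igkv19-93) and as IG_LV_gene for the other 97, and both were kept. A further 6 kappa V genes are typed protein_coding in the table and are not among the 98, and GENCODE M21 calls 4 of these V genes. The 98 genes span chr6:67555636-70704177 in mm10 (GRCm38), and Igkc lies at chr6:70726435-70726757 on the plus strand. Only a genomic clone name stands in the table for 43 of them, and all 98 were named by matching coordinates and strand to a GENCODE M21 gene. That annotation calls 92 of them V genes and 6 of them V pseudogenes.

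The data were ribosomal-RNA-depleted total RNA libraries from 4 samples of C57BL/6 mice at postnatal week 20. The 2 KO samples were cervical B cell lymphomas of mice that lack Beclin-1 (Becn1, an autophagy protein) in myeloid cells, and the 2 WT samples were cervical lymph nodes of wild-type mice. Genotype and lymphoma therefore cannot be told apart, and the labels used here do not say which Cre line removed Becn1, nor whether both samples of each genotype are from different mice, so each p-value speaks only of the scatter among these 4 libraries, part of which may be technical. Library totals ran from 15604247 to 20067004 reads.

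Each developing B cell builds its kappa chain by joining a V gene to a J segment, and the joined exon is then spliced to Igkc. V genes on the same strand as Igkc join by deleting the DNA in between, and those on the opposite strand join by inverting it. A V gene is therefore transcribed strongly only in cells that rearranged it, so the share of reads on each V gene in a tissue is commonly read as the usage of that gene among its B cells and plasma cells. V genes are grouped into families by sequence, and the family is the number before the hyphen in the gene's name.

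The end of the V exon encodes the start of CDR3, the loop of the light chain where the V gene meets the J segment. The last 60 bases of the V exon in GENCODE M21 are shown for the 8 genes that the usage results turn on, written 5′ to 3′ on the coding strand. The capitals mark the codon of the last in-frame cysteine, after which CDR3 begins. Igkv3-2, Igkv3-4, Igkv1-117, Igkv19-93 and Igkv6-15 were among the most used genes of the KO libraries, Igkv8-24 and Igkv8-19 of WT replicate 1, and Igkv8-21 of WT replicate 2.
Igkv3-2: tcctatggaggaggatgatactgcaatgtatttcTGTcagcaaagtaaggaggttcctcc
Igkv3-4: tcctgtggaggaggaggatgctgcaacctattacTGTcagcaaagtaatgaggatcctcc
Igkv1-117: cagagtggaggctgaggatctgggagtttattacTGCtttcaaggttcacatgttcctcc
Igkv19-93: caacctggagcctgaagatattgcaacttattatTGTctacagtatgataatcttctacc
Igkv6-15: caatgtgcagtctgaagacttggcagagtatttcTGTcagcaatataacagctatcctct
Igkv8-24: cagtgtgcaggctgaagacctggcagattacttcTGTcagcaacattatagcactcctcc
Igkv8-19: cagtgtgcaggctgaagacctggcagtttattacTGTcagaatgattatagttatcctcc
Igkv8-21: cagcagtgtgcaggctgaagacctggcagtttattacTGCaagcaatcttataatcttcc
On the plus strand, these stretches lie at chr6:70699008-70699067 for Igkv3-2, chr6:70672318-70672377 for Igkv3-4 and chr6:68121768-68121827 for Igkv1-117. On the minus strand, they lie at chr6:68736297-68736356 for Igkv19-93 and chr6:70406469-70406528 for Igkv6-15. The Igkv8 stretches, also on the minus strand, lie at chr6:70216858-70216917 for Igkv8-24, chr6:70340876-70340935 for Igkv8-19 and chr6:70314895-70314954 for Igkv8-21. The annotated exon of Igkv8-21 leaves 20 bases after the cysteine codon, against 23 bases in the other 7 genes.

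The V exons resemble each other, which bears on every count below, since the handling of reads that fit more than 1 gene is not given in the sources used here. In GENCODE M21, 41 of the 98 V exons have another of the 98 at 95% identity or more, and the median identity to the closest one is 93.9%, with a range of 66.8% to 99.0%. The closest one belongs to the same family for 91 of the 98. Igkv8-19 and Igkv8-28 are 97.8% identical and Igkv1-117 and Igkv1-110 are 96.8% identical, so counts within these pairs are uncertain. Igkv8-21 is less close to its nearest relative, Igkv8-19, at 92.3% identity. Igkv4-55 overlaps the predicted gene Gm11143 on the opposite strand, and the file gives them nearly the same counts. Igkv4-55 had 1998 and 2130 reads in KO, against 4 and 171 in WT, and Gm11143 had 2008 and 2139 in KO, against 4 and 172 in WT, so the reads of that pair cannot be told apart.

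WT replicate 1 stood apart from the other libraries in B and T cell markers before any V gene was considered. The summed level of 9 B cell marker genes (Cd79a, Cd79b, Ms4a1 and others) was 2374 and 2283 counts per library total, scaled as CPM in the KO libraries, against 15.7 in WT replicate 1 and 1614 in WT replicate 2. T cell markers (6 genes) summed to 421 and 406 CPM in KO, against 4.34 in WT replicate 1 and 545 in WT replicate 2. Markers of epithelium (7 genes, among them Epcam and Krt18) summed to 11.47 and 19.2 CPM in KO, against 1286 in WT replicate 1 and 1197 in WT replicate 2. Both WT libraries had these epithelial markers far above the KO libraries, and leaving out WT replicate 1 does not remove that difference. WT replicate 1, labelled as cervical lymph node, thus had these B and T cell markers at no more than 9.85 CPM each (Fcrla), none of them at 0 reads, and results are given with and without it. In whole tissue, fewer cells of a type and less RNA per cell cannot be told apart.

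Reads on kappa V genes were far more numerous in the KO libraries than in either WT library. The 98 genes together took 148505 reads in KO replicate 1 and 168859 in KO replicate 2, against 366 in WT replicate 1 and 10126 in WT replicate 2. Scaled by the library totals, these were 9517 and 8415 CPM in KO and 22.7 and 566 CPM in WT. In percent of all reads, kappa V genes took 0.952% and 0.841% of the KO libraries and 0.00227% and 0.0566% of the WT libraries. The KO libraries were close to each other, both lay above both WT libraries, and the WT libraries were far apart. The difference of the mean log2 CPM, KO minus WT, was 6.30. Set against WT replicate 2 alone it was 3.98, and against WT replicate 1 alone 8.62. With 2 libraries a group, an exact permutation test of a single value cannot give a two-sided p below 0.333, so this and the other summed values are given as descriptions.

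**Figure D1:**
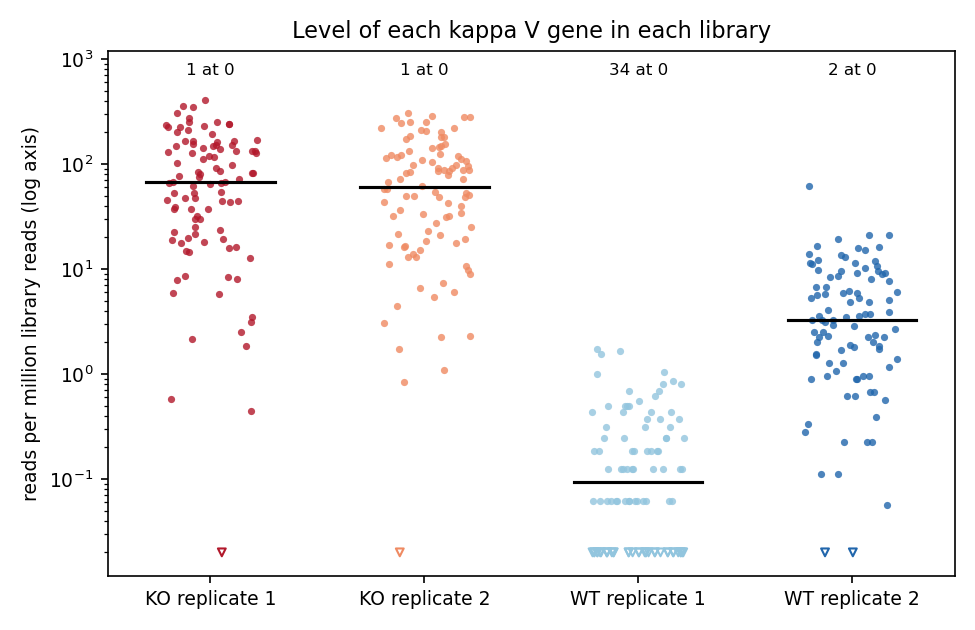
Each point is 1 of the 98 kappa V genes in 1 library, with its level in CPM of the library total on a log axis, the bar is the median, and open triangles at the bottom are genes at 0 reads. The medians are 67.7 and 60.1 CPM in the KO libraries and 0.0929 and 3.30 CPM in the WT libraries, with 34 genes at 0 in WT replicate 1.

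Reads on the other kappa gene segments were likewise more numerous in KO, although Igkc and the 5 kappa J segments did not pass the test described below (Igkc: log2 fold change 4.51, SE 1.621, adjusted p = 0.184, edgeR). Igkc had 186451 and 235270 reads in KO, against 455 and 15865 in WT, so that kappa V reads per Igkc read were 0.796 and 0.718 in KO and 0.804 and 0.638 in WT. This ratio overlapped between the groups, with a mean of 0.757 ± 0.0557 in KO and 0.721 ± 0.117 in WT (SD, n = 2 each). Of the reads on the 5 kappa J segments, Igkj1 and Igkj2 took most in KO and in WT replicate 2. Igkj1 took 31.3% and 32.9% in KO, against 15% in WT replicate 1 (6 of 40 reads) and 35.4% in WT replicate 2. Igkj2 took 34.1% and 33.5% in KO, against 50% and 29.0% in WT. Igkj3, which is known to carry a splice signal that does not work in the mouse, took 0.479% and 0.660% in KO, against 0 of 40 reads in WT replicate 1, which allows up to 8.81%, and 1.82% in WT replicate 2. These intervals, and those below, are 95% exact Clopper-Pearson intervals, and they cover counting error only, since the reads carry no molecular identifiers.

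Lambda light chain V genes, the alternative to kappa in mouse antibodies, took a small share in every library. The 3 lambda V genes had 9.50% and 9.40% of all light chain V reads in KO, against 13.5% (10.4% to 17.1%) in WT replicate 1 and 8.85% (8.33% to 9.39%) in WT replicate 2. The shares of the KO libraries lay between those of the WT libraries.

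Gene by gene, 95 of the 98 kappa V genes had enough reads to be tested over the whole table of 20695 genes. In edgeR's quasi-likelihood test with Benjamini-Hochberg adjustment, 8 of the 95 rose in KO at an adjusted p under 0.05 and 0 fell, where 1.04% of all genes tested rose. At an unadjusted p under 0.05, 89 of the 95 were higher in KO and 0 were lower, beside 10.5% of all genes tested that were higher. All 95 fitted log2 fold changes were positive, with a median of 4.77 and a range of 1.08 to 5.92, beside a median of 0.01 over all genes tested. On the scale of CPM corrected by edgeR's TMM factors, both KO libraries lay above both WT libraries for 94 of the 95, where 34.3% of all genes tested did so. The exception was Igkv8-21.

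The 8 genes that rose were Igkv16-104, Igkv8-19, Igkv8-24, Igkv8-30, Igkv4-56, Igkv4-61, Igkv14-130 and Igkv2-116. Among these, Igkv4-56 and Igkv2-116 are pseudogenes in GENCODE M21, with only 1 and 4 reads in WT for Igkv4-56 and 1 and 10 for Igkv2-116. Igkv16-104, the only member of its family here, had 116 and 86.7 TMM CPM in KO, against 2.05 and 3.05 in WT. Its log2 fold change was 5.28 (SE 0.36, adjusted p = 0.0416, edgeR). Igkv8-24 had 165 and 143 TMM CPM in KO, against 3.26 and 5.72 in WT, with a log2 fold change of 5.08 (SE 0.41, adjusted p = 0.0435, edgeR). Igkv8-19 had 64.4 and 64.9 TMM CPM in KO, against 3.02 and 4.82 in WT, with a log2 fold change of 4.02 (SE 0.33, adjusted p = 0.0435, edgeR). In these 3 genes both KO libraries were high, both WT libraries were low, and the groups did not overlap. The largest fold change of the 95, 5.92 on the log2 scale (SE 0.61, adjusted p = 0.0456, edgeR), was that of Igkv4-61, with 59.9 and 44.4 TMM CPM in KO, against 0.362 and 1.19 in WT. Its WT values rest on 3 and 25 reads.

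The most used genes of the KO libraries did not pass that threshold. Igkv3-2 had 323 and 194 TMM CPM in KO, against 1.93 and 11.8 in WT, with a log2 fold change of 5.21 (SE 1.07, adjusted p = 0.0821, edgeR). Igkv3-4 had 276 and 237 TMM CPM in KO, against 1.33 and 7.68 in WT, with a log2 fold change of 5.79 (SE 1.01, adjusted p = 0.0682, edgeR). In both genes the KO libraries lay above the WT libraries and the WT libraries differed several-fold from each other. The count of genes that rose changed with each library left out, where the lone library of a group was taken to vary like the other group: it was 95 of 97 without WT replicate 1, with a median log2 fold change of 4.01 and 20.9% of all genes tested called higher, and 96 of 97 without WT replicate 2, with a median of 8.03 and 32.3% of all genes tested called higher. It was 0 without KO replicate 1, 0 without KO replicate 2 and 0 with library totals in place of TMM factors, which moved the median of all genes to 0.60, and in these 3 fits 0 of all genes tested were called higher. It was 93 with DESeq2, where 6.40% of all genes tested were called higher. The authors' deposited table of fold changes holds 5511 rows, limited to genes at their p under 0.05. Of the 98, 38 are listed there, all 38 as up, where 2482 of all 5511 rows (45.0%) are up. The 38, thus selected by p, had a median log2 fold change of 5.61, with the highest at 6.65 (Igkv4-57). In the authors' separate tables of higher and of lower genes, 0 of the 98 were found.

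Markers of the cells that carry kappa chains were measured beside these levels. The 9 B cell markers had both KO libraries above both WT libraries in sum, as given above, and 0 of the 9 passed the edgeR test in either direction. The 9 did not all run that way: Fcer2a had 47.9 and 48.7 CPM in KO, against 0.062 in WT replicate 1 and 178 in WT replicate 2, and Pax5 had 99.3 and 94.4 CPM in KO, against 2.54 and 159 in WT. Without WT replicate 1, their log2 fold changes were -2.01 for Fcer2a and -0.84 for Pax5. The others of the 9 were positive in that fit, at 1.21 for Cd22, 0.90 for Ms4a1, 0.89 for Fcrla and 0.79 for Blk. They were 0.32 for Cd79b, 0.22 for Cr2 and 0.21 for Cd79a. Of 8 plasma cell markers found in the table, summed to 2408 and 2507 CPM in KO and 501 and 827 CPM in WT, Sdc1 rose, with 78.0 and 75.2 CPM in KO against 10.4 and 22.2 CPM in WT (log2 fold change 1.61, SE 0.19, adjusted p = 0.0478, edgeR). The joining chain gene Igj had 1614 and 1747 CPM in KO, against 6.94 and 156 CPM in WT, with an adjusted p of 0.145 (edgeR), and it made up most of the plasma cell sum in KO. The log2 fold change of Igj was 4.16 over the 4 libraries and 3.30 without WT replicate 1. Fkbp11, Derl3 and Xbp1 had negative log2 fold changes and did not pass, at -2.60, -1.81 and -0.56. Fkbp11 had 15.3 and 13.4 CPM in KO, against 45.9 and 53.9 CPM in WT (adjusted p = 0.0614, edgeR). Derl3 had 45.8 and 44.4 CPM in KO, against 117 and 22.3 CPM in WT, and its log2 fold change without WT replicate 1 was 0.89. The remaining Prdm1, Irf4 and Tnfrsf17 had positive log2 fold changes, at 2.86 (adjusted p = 0.0604, edgeR), 2.68 and 1.96, and did not pass. In these genes both KO libraries lay above both WT libraries. Rag1, which cuts the DNA for V to J joining, was near 0 throughout, with 7 and 4 reads in KO and 0 and 1 in WT. The part of B cell and plasma cell content in the kappa V levels was not tested.

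Usage was then compared as a share within each library, which does not depend on how much kappa RNA the tissue held. Usage is the reads of a gene per base of its annotated exons, in percent of the same sum over all 98 genes, and even usage would be 1.02% a gene. Nearly all kappa V genes were detected in 3 of the 4 libraries: 97 and 97 of the 98 genes had at least 1 read in KO, against 64 in WT replicate 1 and 96 in WT replicate 2. At the depth of the shallowest library, 366 kappa V reads, the expected number detected was 74.8 and 74.9 in KO, against 64 and 73.2 in WT. Igkv2-95-2 had 0 reads in all 4 libraries, but its counted stretch, chr6:68647999-68648121, leaves out its V exon in GENCODE M21, chr6:68647415-68647503. Igkv18-36 had reads in KO only, 9 and 22, and 0 in WT, where 3 reads would be 0.186 CPM in WT replicate 1 and 0.168 CPM in WT replicate 2. Its usage was 0.00609% and 0.0131% in KO. The 0 reads in WT allow up to 1.004% in WT replicate 1 and 0.0367% in WT replicate 2, so no difference in usage is shown.

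Usage was spread more evenly in the KO libraries than in the WT libraries. The most used genes were Igkv3-2 in KO replicate 1, at 4.16% (4.06% to 4.26%), and Igkv3-4 in KO replicate 2, at 3.496% (3.41% to 3.58%), against 7.71% (5.06% to 11.15%) for Igkv8-19 in WT replicate 1 and 10.4% (9.85% to 11.03%) for Igkv8-21 in WT replicate 2. The 10 most used genes held 29.9% and 30.5% of usage in KO, against 47.4% and 37.4% in WT. The effective number of V genes, the inverse Simpson index, which is the number of equally used genes that would give the same chance of drawing the same gene again, was 53.2 and 53.1 in KO, against 30.1 and 36.9 in WT. Both KO libraries lay above both WT libraries on this index, although WT replicate 1 rests on 366 reads. Corrected for the number of reads, on raw reads, it was 52.2 and 52.3 in KO and 32.5 and 35.8 in WT. Without Igkv8-21, it was 52.6 and 52.3 in KO, against 29.8 in WT replicate 1 and 49.4 in WT replicate 2, so most of the difference from WT replicate 2 lay in that gene.

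**Figure D2:**
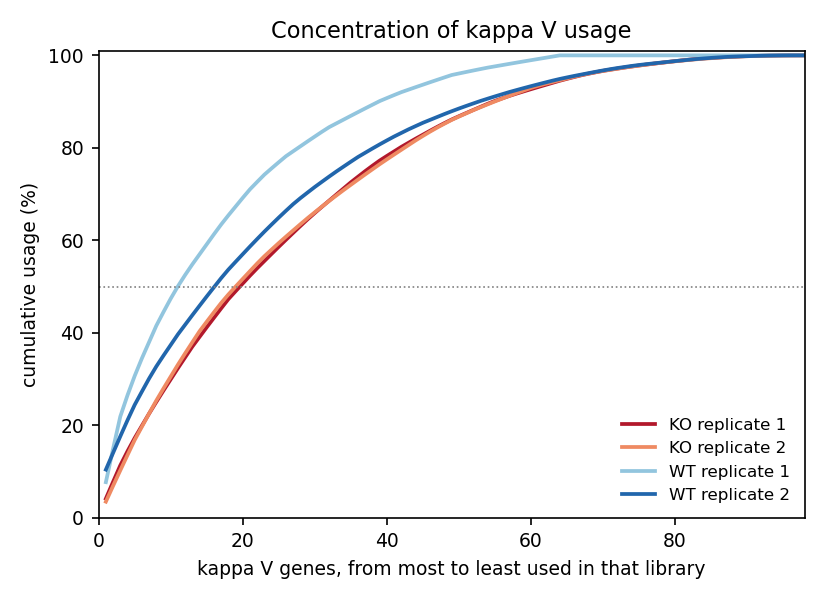
For each library the line gives the cumulative usage in percent (vertical axis) over the 98 kappa V genes ordered from the most to the least used in that library (horizontal axis). The KO lines lie on top of each other and reach 50% with 20 genes each, against 11 genes in WT replicate 1 and 17 in WT replicate 2.

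The KO libraries shared nearly the same usage profile. Their dissimilarity, the percentage of usage that would have to be moved between genes to make them equal, was 9.02%, and 8 of their 10 most used genes were the same. KO replicate 1 and WT replicate 2 differed by 22.5%, KO replicate 2 and WT replicate 2 by 23.0%, and the WT libraries by 42.8%. Without Igkv8-21, the first pair came to 18.3% and the second to 18.8%. Across the 98 genes, which share library, depth and exon length scaling and are not independent replicates, Spearman's rho of usage was 0.98 between the KO libraries, 0.90 and 0.91 between each KO library and WT replicate 2, and 0.73 between the WT libraries. Counting error raises dissimilarity and lowers rho, and more so in libraries with fewer reads. Kappa V reads numbered 148505 and 168859 in KO, against 366 in WT replicate 1 and 10126 in WT replicate 2, so these values are not on an equal footing. The part of counting error in them was not tested. Of 90 genes with at least 50 reads in both KO libraries, 83 lay within 1.5-fold of each other.

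A few genes differed between the KO libraries themselves. Igkv4-58 had a usage of 1.49% in KO replicate 1 and 0.690% in KO replicate 2, against 0.645% and 0.470% in WT, a ratio of 2.16 between the KO libraries. Igkv1-133 (0.660% and 0.355%) and Igkv2-112 (0.451% and 0.244%) were also used more in KO replicate 1, at ratios of 1.86 and 1.85. In the other direction, Igkv19-93 had 2.04% in KO replicate 1 and 3.42% in KO replicate 2, against 2.44% and 2.29% in WT, and Igkv1-88 had 0.478% and 0.814% in KO, against 0% and 0.426% in WT. These genes had the most extreme ratios of the 90.

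**Figure D3:**
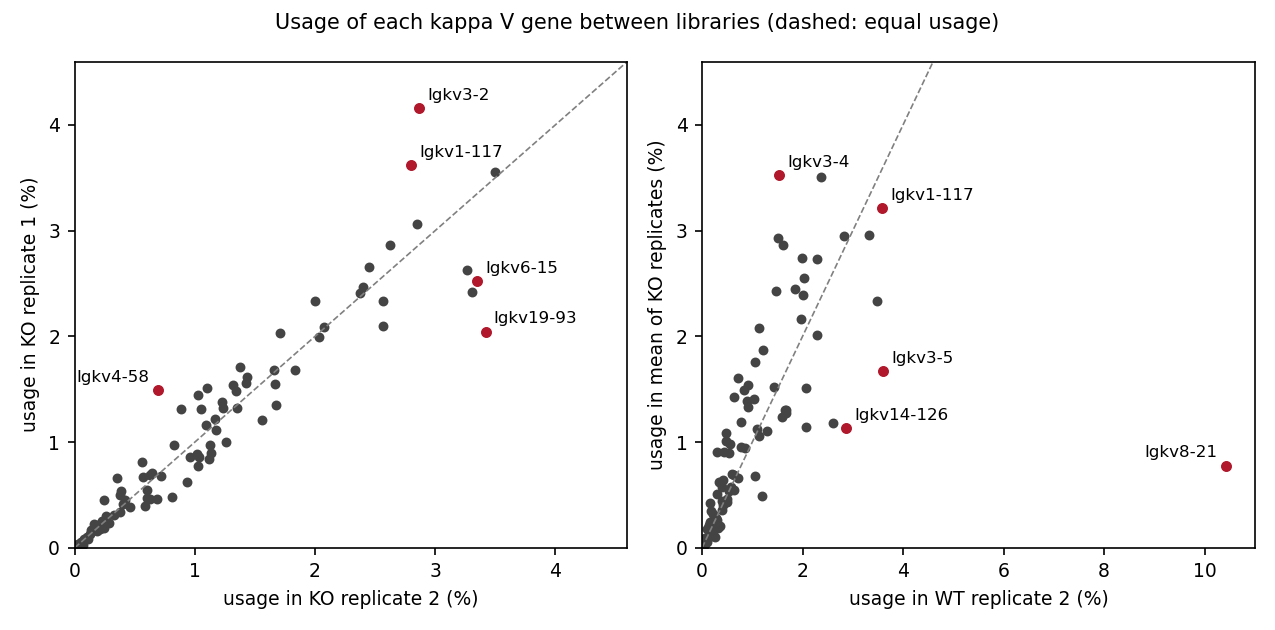
Each point is 1 of the 98 kappa V genes, with usage in percent of the length-scaled kappa V reads on both axes, the line of equal usage dashed and red for the genes named in the plot. The left panel sets KO replicate 1 against KO replicate 2, where Igkv4-58 departs most (ratio 2.16), and the right panel sets the mean of the KO libraries against WT replicate 2, where Igkv8-21 lies far to the right at 10.4%.

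The gene that departed most from the common profile was Igkv8-21, in WT replicate 2. It had 968 and 1654 reads in KO, against 2 in WT replicate 1 and 1101 in WT replicate 2. Its usage was 0.622% and 0.934% in KO, against 0.520% (0.0630% to 1.87%) in WT replicate 1 and 10.4% (9.85% to 11.03%) in WT replicate 2, where it was the most used gene and ranked above Igkv3-5 at 3.61%. It ranked 55th and 46th in the KO libraries and 48th in WT replicate 1, so the high usage was seen in a single library. On the TMM scale, it was also the only gene tested for which a WT library lay within the KO range, with 48.7 and 63.7 TMM CPM in KO, against 0.242 and 52.5 in WT. By library totals, it had 62.0 and 82.4 CPM in KO, against 0.124 and 61.6 in WT, and both KO libraries lay above both WT libraries. Its log2 fold change of 1.08 (SE 1.83, adjusted p = 0.726, edgeR) was the smallest of the 95.

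Against WT replicate 2, 54 genes had at least 50 reads in it and in both KO libraries. The usage of 33 of the 54 in KO replicate 1, and of 31 in KO replicate 2, lay within 1.5-fold of that in WT replicate 2. The mean KO usage was at most 0.5 times that of WT replicate 2 for 5 genes and at least 2 times for 3 genes. The lower ones were Igkv8-21 (ratio 0.0746), Igkv14-126 (0.395), Igkv4-86 (0.410), Igkv17-121 (0.453) and Igkv3-5 (0.464). Igkv14-126, for example, had 1.001% and 1.26% in KO, against 1.07% and 2.86% in WT, and Igkv3-5 had 1.69% and 1.66% in KO, against 0.524% and 3.61% in WT. The higher ones were Igkv4-57 (2.25), Igkv16-104 (2.27) and Igkv3-4 (2.29). Igkv3-4 had 3.55% and 3.496% in KO, against 2.88% and 1.54% in WT. In WT replicate 1 these values rest on 4 reads for Igkv14-126, 2 for Igkv3-5 and 11 for Igkv3-4. The cut of 50 reads left out genes with fewer reads in WT replicate 2, among them Igkv4-61 (25 reads there, ratio 2.99) and Igkv8-16 (27 reads, ratio 0.387). A gene used less in WT replicate 2 than in KO is left out more readily, so the counts of 5 and 3 are not on an equal footing.

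Over all 4 libraries, usage was higher in both KO libraries than in both WT libraries for 33 of the 98 genes, lower for 8, and overlapping for 57. In WT replicate 1, 34 of the 98 genes had 0 of its 366 kappa V reads, which for Igkv18-36, for example, allows up to 1.004%. A gene at 0 reads there can count as higher in KO or as overlapping but never as lower, so the counts of 33 and 8 are not on an equal footing. Usage is defined over these 98 genes alone, so no share over other genes stands beside these counts, and a rise in 1 share lowers the rest. Among the genes with the highest usage, Igkv3-4, Igkv12-44 (2.86% and 2.63% in KO, against 1.90% and 1.99% in WT) and Igkv6-15 (2.52% and 3.35% in KO, against 2.17% and 1.51% in WT) were higher in KO. Igkv1-117, at 3.62% and 2.80% in KO against 1.57% and 3.58% in WT, and its close relative Igkv1-110, at 3.07% and 2.85% in KO against 1.05% and 3.33% in WT, overlapped.

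Usage was spread along the whole locus, from the far end to Igkc. In 6 windows of 556667 bases each, the window next to Igkc held the most usage in each library, 29.3% and 30.6% in KO, against 37.1% and 35.5% in WT, with 22 of the 98 genes. The KO libraries lay below the WT libraries there, and this window holds Igkv8-21 and Igkv8-19. Igkv8-21 made up 10.4% of usage in WT replicate 2, against 0.622% and 0.934% in KO. The order of KO and WT replicate 2 in this window therefore rested on that gene. The fourth window from the far end, with 13 genes, all on the opposite strand, held 13.5% and 11.7% in KO, against 8.74% (5.98% to 12.2%) and 9.42% (8.85% to 10.01%) in WT, and there KO lay above WT. The farthest window, with 13 genes, held 8.78% and 7.999% in KO, against 7.52% and 9.98% in WT, and the groups overlapped. The second window, with 11 genes, all on the strand of Igkc, held 16.7% and 15.5% in KO, against 14.7% (11.2% to 18.7%) and 15.1% (14.4% to 15.8%) in WT. KO lay above WT there, and the share of KO replicate 2 fell within the counting intervals of both WT libraries and that of KO replicate 1 within that of WT replicate 1 only. The third, with 19 genes, held 10.95% and 13.96% in KO, against 7.91% and 11.96% in WT, and the fifth, with 20 genes, held 20.8% and 20.2% in KO, against 24.1% and 18% in WT, and in both the groups overlapped.

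The genes at the ends of the locus were used at different levels. Igkv2-137, the farthest gene, at 3170 kb from Igkc, had 1.51% and 1.10% in KO, against 1.30% and 1.66% in WT. Igkv3-1, the nearest gene, at 22.3 kb from Igkc, had only 0.238% and 0.289% in KO, against 0.787% and 0.296% in WT, while its neighbour Igkv3-2, at 27.4 kb, was among the most used genes. Across the 98 genes, Spearman's rho between usage and the distance to Igkc was -0.15 for the KO mean and -0.15 for WT replicate 2, given as a description of genes that share a library.

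**Figure D4:**
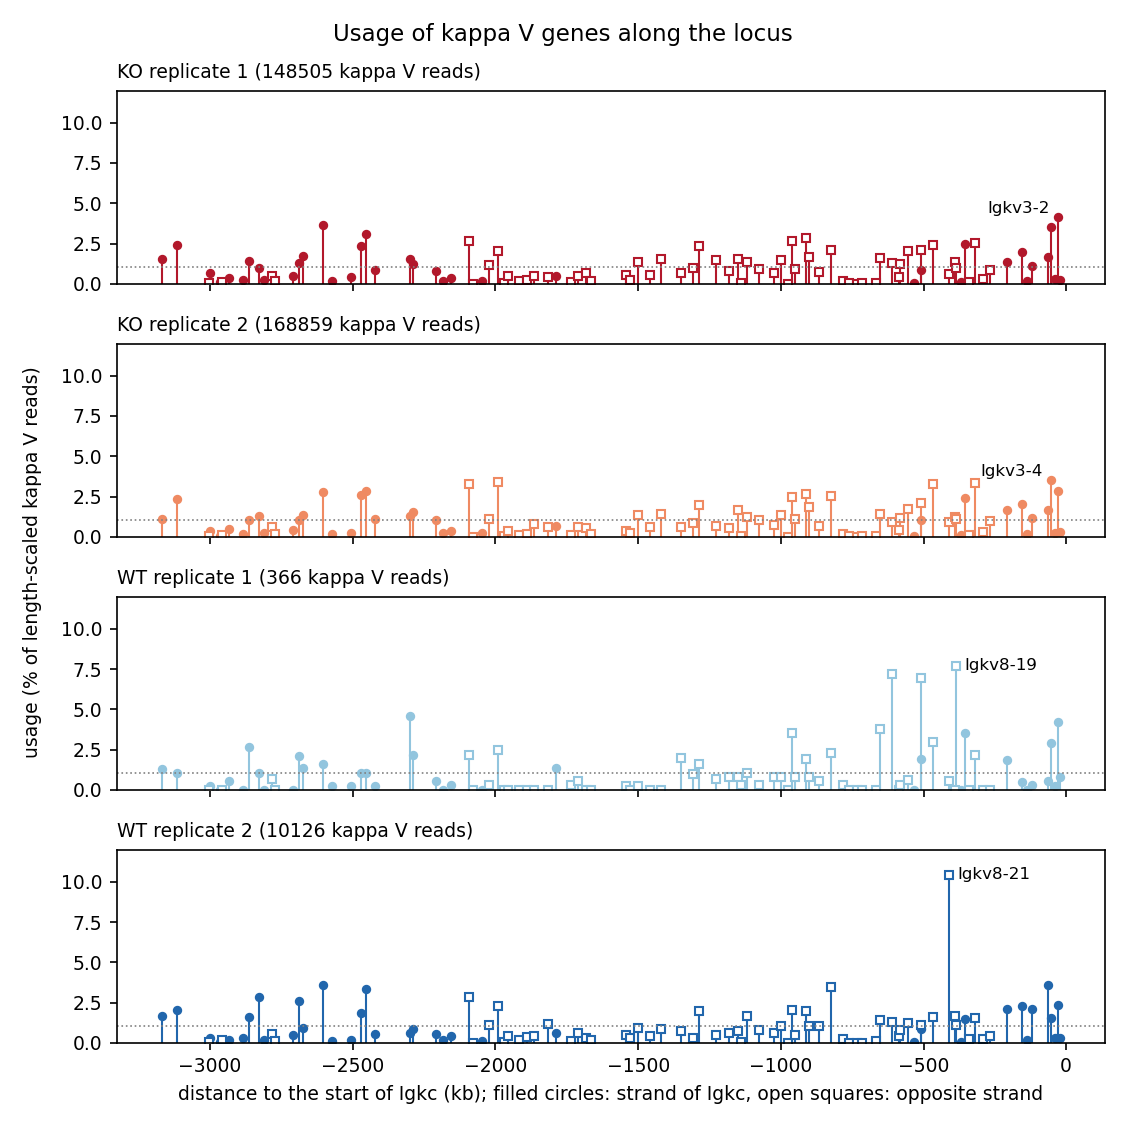
Usage of each kappa V gene in percent (vertical axis) against its position as the distance to the start of Igkc in kb (horizontal axis, Igkc at 0), with 1 panel a library, KO above WT, filled circles for genes on the strand of Igkc, open squares for the opposite strand, and a dotted line at even usage (1.02%). The KO panels resemble each other (83 of 90 genes within 1.5-fold), WT replicate 1 has its highest values on 3 Igkv8 genes, and WT replicate 2 has a single high value at Igkv8-21 (10.4%).

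The strand of the gene, which sets whether joining deletes or inverts DNA, divided usage by similar shares in the 4 libraries. The 38 genes on the strand of Igkc held 44.6% and 42.4% of usage in KO, against 40.4% (35.4% to 45.7%) and 43.2% (42.3% to 44.2%) in WT, and the groups overlapped. These genes are 38.8% of the 98. The 6 pseudogenes of GENCODE M21 held 0.534% and 0.523% in KO, against 0.589% (2 reads) and 0.482% in WT, although they are 6.12% of the 98. The most used of them was Igkv4-73, with 0.256% and 0.223% in KO, against 0% and 0.270% in WT.

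By family, the largest difference between the group means, -11.5 percentage points, was in Igkv8. Its 9 genes held 8.44% and 8.13% of usage in KO, against 23.4% (19.1% to 28.0%) in WT replicate 1 and 16.3% in WT replicate 2. Both KO libraries lay below both WT libraries, and different genes carried the WT values. The order against WT replicate 2 rested on Igkv8-21, which had 0.622% and 0.934% in KO. In WT replicate 1, Igkv8-19 (7.71%, 25 reads), Igkv8-30 (7.22%, 28 reads) and Igkv8-24 (6.96%, 27 reads) were the 3 most used genes of the library, whereas in WT replicate 2 they had 1.14%, 1.30% and 1.13%, and Igkv8-21 had 10.4%. In KO, Igkv8-19 had 0.977% and 1.13%, Igkv8-30 had 1.31% and 0.888%, and Igkv8-24 had 2.09% and 2.07%. These 3 genes also rose by level in KO, with 3.02 and 4.82 TMM CPM in the WT libraries for Igkv8-19, 3.38 and 6.58 for Igkv8-30, and 3.26 and 5.72 for Igkv8-24. By library totals, the WT libraries were farther apart, at 1.55 and 5.65 CPM for Igkv8-19, 1.73 and 7.72 for Igkv8-30, and 1.67 and 6.71 for Igkv8-24.

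The other families differed less. Igkv4, the largest family with 23 genes, held 17.5% and 16.05% in KO, against 10.7% (7.68% to 14.5%) and 13.9% (13.2% to 14.6%) in WT, so KO lay above WT. Igkv17, with 3 genes, held 2.79% and 2.10% in KO, against 4.78% and 4.25% in WT, so KO lay below WT. Igkv1, with 10 genes, held 11.1% and 10.04% in KO, against 3.92% (2.21% to 6.39%, 15 reads) in WT replicate 1 and 10.5% in WT replicate 2, and Igkv3, with 9 genes, held 14.6% and 13.7% in KO, against 11.3% and 14.7% in WT. In Igkv1 and Igkv3 the groups overlapped.

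**Figure D5:**
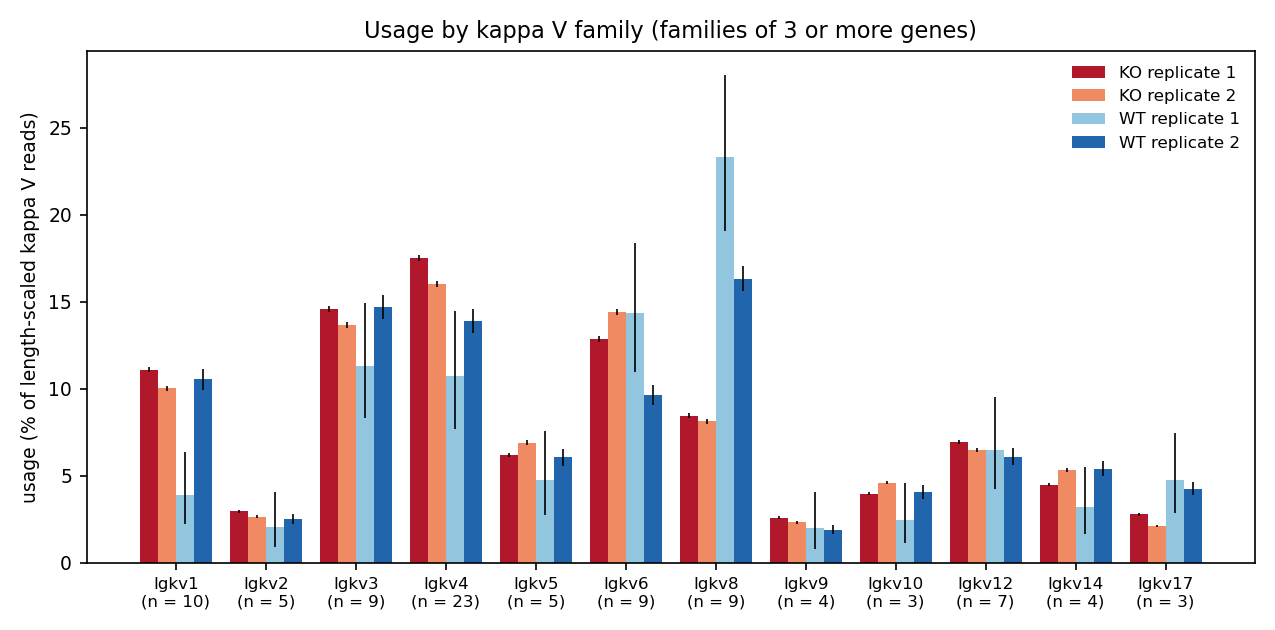
Usage in percent of each kappa V family of 3 or more genes (n, the number of genes) in the KO libraries (red, orange) and the WT libraries (light blue, blue), with bars from 0 and 95% exact binomial intervals that cover counting error only. Igkv8 stands at 8.44% and 8.13% in KO, against 23.4% and 16.3% in WT, and the intervals of WT replicate 1 are wide at 366 reads.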

How the data were processed

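Ion Torrent libraries were made from whole RNA after removal of ribosomal RNA, per the labels' protocols. The authors deposited raw read counts per gene with coordinates and gene types, and tables of their own log2 fold changes and p-values, which were deposited without sample values. Genome build mm10 and DESeq2 1.62 are named, with no role, per the submitters' processing notes. Which aligner and counter were used, and whether counting used strand, is not given in the sources used here. A further 8 per-sample columns were not used.

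For the whole table, edgeR 4.0.16 (R 4.3.3) was run on the counts: TMM factors, filterByExpr (minimum count 10, total 15), the quasi-likelihood test of KO against WT with no covariate, and Benjamini-Hochberg adjustment over all genes at 0.05. DESeq2 1.42.0 and limma 3.58.1 (voom) were alternatives, besides other scalings, filters, a replicate block and each library left out. The procedure was tested on simulated data. Usage was computed from counts per exon base (GENCODE M21 exons inside the deposited span, 123 to 371 bases), also from raw reads and deposited spans. Intervals are exact binomial ones at 95%. Totals of 15604247 to 20067004 reads make 3 reads 0.149 to 0.192 CPM.

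The genes named are the 6 most used in each library, the 5 with the smallest p in each direction, the 5 largest and 5 smallest usage ratios between the KO libraries, the nearest and farthest from Igkc, and the most used pseudogene. Others (Igkv4-61, Igkv2-116, Igkv4-57, Igkv17-121, Igkv18-36, Igkv2-95-2) were named after their values were seen. A listed B cell marker is not reported here. The members and marker lists were chosen with earlier results of these data known. No promoter or protein sequence of these genes was in the RefSeq tables used, so V exon ends come from GENCODE M21.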

Additional observations from a re-analysis of the deposited data

How the results depend on the processing

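Of the recomputed values of the main results, 117 kept their direction and side of the threshold or their size within the spread, 24 moved by more than it, 6 turned round, 6 gained calls and 4 lost calls. Of the recomputed fold changes of the 31 named genes, 284 kept direction and call, 24 lost the call, 95 gained it and 0 turned round. The count of kappa V genes higher in KO was 8 with edgeR's quasi-likelihood test as run, 0 with library totals alone (0 of all genes), 45 without a filter on low counts (1.75% of all genes), 93 with DESeq2 (6.40%) and 14 with limma-voom (1.21%), and 0 to 96 with each library left out in turn (0 of all genes without either KO library, 20.9% and 32.3% without either WT library). With the replicate number as a block the count was 0, as it was for all genes, while the deviations of same-numbered libraries correlated at -0.11 across genes. The crossed pairing, added after the data were seen, gave 25 (0.976% of all genes). The cause of these shifts was not tested.

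With a library left out in turn, the difference in kappa V reads per Igkc read ran from -0.047 (without WT replicate 2) through -0.0036 (without KO replicate 1) to 0.119, and that in the share of the farthest window ran from -1.59 through 0.0286 (without KO replicate 2) to 0.867 percentage points. The fifth window ran from -3.54 to 2.52 (without WT replicate 1), and it was 0.643 with deposited spans as lengths. Of the named genes, 6 were above WT in usage in both KO libraries and 2 below, against 9 to 15 and 5 to 11 with a library left out.

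The effective number in KO was 52.2 and 52.3 on raw reads, 52.17 and 52.34 when these were corrected for the number of reads, 52.6 and 52.5 without pseudogenes, 54.6 and 53.2 with deposited spans, 54.1 and 54.0 with the 4 genes typed protein_coding that GENCODE M21 calls V genes, and 53.8 and 52.8 without the most used gene, which gave 49.4 in WT replicate 2. The share of the 10 most used genes in KO replicate 1 was 30.7% on raw reads, 28.9% with deposited spans and 29.4% without the most used gene, and 31.2% in KO replicate 2 on raw reads. At least 10 reads were found for 11 genes in WT replicate 1, whose 366 kappa V reads limit every usage value there. At 0 reads there, Igkv18-36, for example, may hold up to 1.004%.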
